A study of Mus musculus with 15 samples.

Results

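The 33 glycolysis and hypoxia genes described here were taken by symbol from a fixed list of names, not by any measured value, out of 49315 genes in the count tables. Each matched 1 Ensembl identifier. They were 18 enzymes of the path from glucose to lactate (Hk1, Hk2, Gpi1, Pfkm, Pfkl, Pfkp, Aldoa, Aldoc, Tpi1, Gapdh, Pgk1, Pgam1, Pgam2, Eno1, Eno3, Pkm, Ldha and Ldhb) and 15 genes known to be induced in low oxygen or to sense it (Slc16a3, Egln1, Egln3, Hif1a, Vegfa, Ddit4, Bnip3, Ankrd37, P4ha1, P4ha2, Pdk1, Adm, Ndrg1, Pfkfb3 and Pfkfb4). Polyadenylated RNA had been sequenced from wild-type C57BL/6J mouse primary myoblasts, the precursor cells of muscle fibres, in 15 libraries. The groups were siSirt1, in which small interfering RNA (siRNA) against the deacetylase gene Sirt1 was given, siLmod1, in which siRNA against the actin nucleator gene Lmod1 was given, and siCtrl, given a control siRNA. All 3 groups received their siRNA with the lipid reagent siRNAiMax and were differentiated for 1 day. Each group held 5 libraries, 1 from each of 5 primary lines numbered 1, 2, 3, 4 and 7. The study asked which genes of the early myogenic program changed under either knockdown.

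Glycolysis splits glucose into pyruvate, and lactate dehydrogenase turns pyruvate into lactate, which the monocarboxylate transporter Slc16a3 exports. Low oxygen stabilises the hypoxia-inducible factor subunit Hif1a, since the prolyl hydroxylases encoded by Egln1 and Egln3 need oxygen to mark it for degradation. Hif1a with its partner Arnt then binds DNA at a short core motif and raises many glycolytic enzymes and genes such as Vegfa, Bnip3 and Pdk1. Differentiating muscle also exchanges general isoforms of some enzymes for muscle isoforms, of which Pgam2, Eno3 and Pfkm are known examples.

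The core motif of the hypoxia-inducible factors, ACGTG or GCGTG on either strand, was searched in the 250 bases upstream of the annotated starts of each gene (RefSeq, build GRCm38.p6). It was present for 29 of the 32 members with an entry, 15 of 18 enzymes and 14 of 14 hypoxia genes. Over all 27025 genes with an entry the share was 41.5%, and over 11096 of them that were expressed in these libraries it was 60.3%. Per window the share was 80.4% of 46 member windows, against 54.2% of the windows of expressed genes and 38.6% of all 32851 windows. Member windows held 60.7% G and C, against 59.7% in windows of expressed genes and 53.2% in all windows. ACGTG is also part of the E-box CACGTG, which 6.02% of all windows held, so the same letters can be read as either. Gpi1, Tpi1 and Pgam2 had no match in these windows. The stretches below show 1 match each for members whose values are described by library further on, chosen after those values were seen. Each is given 5′ to 3′ on the gene's own strand, with that match, or its reverse complement, in capitals.
Egln3: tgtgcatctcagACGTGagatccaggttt
Ddit4: agaacgttgcgaACGTGcgcccggtgcct
Pfkfb3: ctccgcgccgtgACGTGccaagctgtgac
Bnip3: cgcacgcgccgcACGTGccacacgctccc
Pdk1: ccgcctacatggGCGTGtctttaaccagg
Pgk1: gcgtcgtgcaggACGTGacaaatggaagt
Ldha: ggcccagcctacACGTGggttcccgcacg
Hk2: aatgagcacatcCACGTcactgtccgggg
The Egln3 stretch lies on the minus strand at chr12:54204087-54204115, where the motif begins 229 bases upstream of the start. The Ddit4 stretch lies on the minus strand at chr10:59951941-59951969, the Pfkfb3 stretch on the minus strand at chr2:11553973-11554001, and the Bnip3 stretch on the minus strand at chr7:138909597-138909625. On the plus strand lie those of Pdk1 at chr2:71873134-71873162, Pgk1 at chrX:106186938-106186966 and Ldha at chr7:46845745-46845773. The Hk2 stretch lies on the minus strand at chr6:82774490-82774518 and shows the motif as its reverse complement. In Bnip3 and Ldha the capitals are part of CACGTG, and the Bnip3 stretch also holds GCGTG on the opposite strand at either side, left in lower case. A match is a description of these letters and was not tied to binding in these cells.

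The libraries held 21004908 to 27815744 counts in siSirt1, 27135398 to 31829009 in siLmod1 and 26097889 to 33601761 in siCtrl. A level of 3 counts was worth 0.0893 to 0.143 CPM (counts scaled to a common library total). Sirt1 in siSirt1 stood at 17.9%, 20.4%, 16.6%, 43% and 28.9% of its own siCtrl library in lines 1, 2, 3, 4 and 7, and Lmod1 in siLmod1 at 9.88% to 24.1%, both highest in line 4. The other target differed from siCtrl too, in 5 of 5 lines each. Sirt1 was higher in siLmod1 (log2 fold change 0.54 with the line as a block, edgeR adjusted p = 9.6e-05). Lmod1 was lower in siSirt1 (-0.96, adjusted p = 0.028), which did not hold without line 1, 4 or 7. With the group alone their adjusted p were 0.52 and 0.72. Line 4 stood apart from the other lines in every group. On the first principal component, which held 39.6% of the variance over 15716 genes, its 3 libraries lay at 104 to 107 and the other 12 at -50.8 to 3.65. The siSirt1 library of line 7 lay lowest on the second component at -97.3, with the others at -45.7 or above. The 6 myoblast markers summed to 4908 to 7915 CPM in siSirt1, 6391 to 8710 in siLmod1 and 5417 to 9163 in siCtrl. Among them Myod1, a myogenic regulator, had 620 to 982 CPM over all libraries. Myf5 varied by line, at 2.38, 2.1 and 3.5 CPM in line 7 of siSirt1, siLmod1 and siCtrl, and 185, 219 and 288 CPM in line 4. Pax7 had 35 to 147, 29.7 to 47.1 and 43.2 to 83.8 CPM in the 3 groups. Line 4 carried less of the differentiation factor Myog, at 466, 626 and 784 CPM in siSirt1, siLmod1 and siCtrl, against 1908 to 2322, 1342 to 2239 and 2039 to 2916 CPM in the other lines. Of the lists for other cell types, 7 fibroblast markers summed to 108 to 791 CPM in siSirt1, 88.2 to 299 in siLmod1 and 119 to 503 in siCtrl, with Lum and Tcf21 under 1 CPM throughout. Most of that sum was the collagen gene Col3a1, at 102 to 785, 84.4 to 293 and 115 to 497 CPM. The 6 smooth muscle and pericyte markers summed to 87.1 to 251, 46.7 to 106 and 53.1 to 211 CPM. Notch3 was the largest part of it, at 67.7 to 215, 36.9 to 81.5 and 41.8 to 160 CPM. Macrophage and Schwann cell markers summed to 10.2 CPM or less in every library. The endothelial receptor gene Tek reached 44.5, 89.1 and 96.2 CPM in line 4, against 1.04 CPM or less elsewhere. Of the other endothelial genes, Pecam1, Kdr and Emcn stayed under 1 CPM and Cdh5 reached at most 1.89 CPM, in siCtrl line 2.

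Levels scaled for gene length and library total (TPM, the authors' values) set the enzymes far above the hypoxia genes. Summed over the 18 enzymes they came to 13913 ± 3772 TPM in siSirt1, 18065 ± 2914 in siLmod1 and 17170 ± 3133 in siCtrl, and over the 15 hypoxia genes to 754 ± 140, 951 ± 341 and 956 ± 417 TPM (SD, n = 5 each). Gapdh, which oxidises glyceraldehyde 3-phosphate, was the most abundant, with a median of 2768 TPM in siSirt1, 3802 in siLmod1 and 3313 in siCtrl. Aldoa, an aldolase, followed at 2097, 3145 and 2885 TPM, with a siCtrl range that overlapped that of Gapdh. Next in siCtrl came pyruvate kinase Pkm, Eno3, Tpi1, Ldha, Pgam2, Eno1 and Pgk1, with medians of 1430 to 977 TPM and ranges that overlapped throughout. The least abundant enzyme was Aldoc, at medians of 2.19, 3.16 and 3.45 TPM. Among the hypoxia genes Ddit4, P4ha1, Egln3 and Bnip3 had siCtrl medians of 162, 155, 108 and 105 TPM, again with overlapping ranges. Adm, which encodes the peptide adrenomedullin, was near the floor, at 0.0371 to 1.15 CPM in siSirt1, 0 to 0.639 in siLmod1 and 0.0321 to 0.371 in siCtrl. It did not pass the filter on low counts, so 32 of the 33 members were tested in each comparison.

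**Figure D1:**
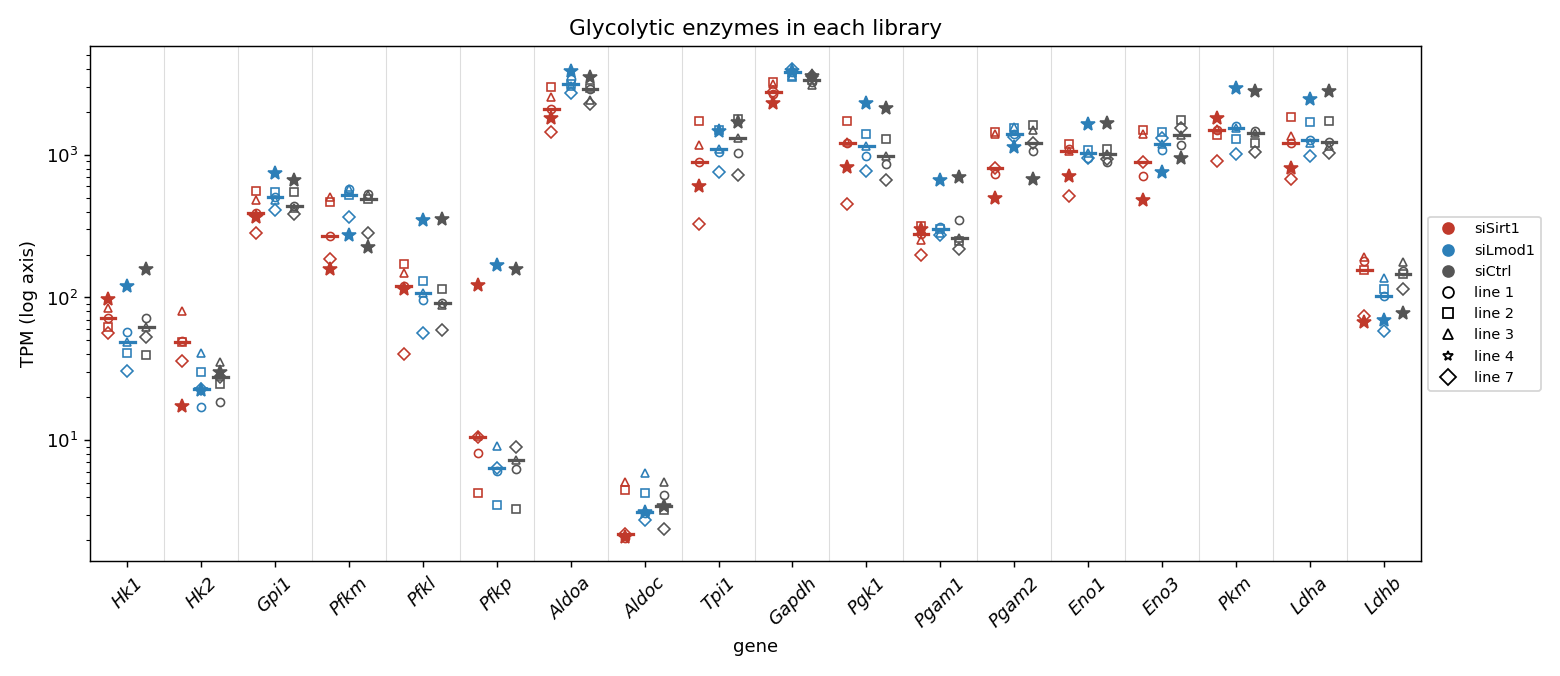
TPM (log axis) of the 18 glycolytic enzymes in each of the 15 libraries; colours are groups, symbols are lines, bars are group medians. The filled stars of line 4 lie high in siLmod1 and siCtrl for enzymes such as Pgk1 (2316 and 2141 TPM), while Gapdh lies between 2295 and 3962 TPM in all libraries.

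Sirt1 knockdown was set against the control first. In a fit of the group alone no member passed an adjusted p under 0.05 (edgeR quasi-likelihood test, Benjamini-Hochberg over 14912 genes), where 0.107% of all genes were called lower and 0.0134% higher. An unadjusted p under 0.05 was found for 5 members, Gapdh, Egln3, Ddit4, Ankrd37 and Pfkfb3, and for 1436 of the 14912 genes. Comparing libraries within each line, with the line as a block, called 3 members lower and 0 higher, against 4.35% of all genes lower and 2.71% higher. These were Egln3, Ddit4 and Pgam2. The median log2 fold change of the 18 enzymes was -0.42 with the group alone and -0.40 within lines, beside 0.02 and 0.01 over all genes tested. That of the 14 hypoxia genes tested was -0.33 and -0.20. Without line 4 the medians within lines were -0.20 and 0.07. Bulk RNA cannot tell fewer cells of a type from less RNA per cell.

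Egln3, the hydroxylase that is itself induced by hypoxia-inducible factors, had the lowest log2 fold change of the members within lines; with the group alone Ankrd37 was lower, at -1.38. In siSirt1 it had 26.8, 60.5, 47.6, 8.19 and 17.3 CPM in lines 1, 2, 3, 4 and 7, against 92.3, 106, 88.1, 29.6 and 54.4 CPM in siCtrl. Every siSirt1 library lay below its own control, although the groups overlapped because lines 4 and 7 were low in both. Its log2 fold change was -1.50 ± 0.20 (SE) within lines, with an adjusted p of 0.0082 in edgeR, and -1.28 ± 0.54 with the group alone, with an adjusted p of 0.48. The call held whichever line was left out, at -1.67 to -1.38. The related Egln1 showed 66.8, 70, 79.5, 58.5 and 52.1 CPM in siSirt1, against 74.1, 60.8, 58, 105 and 49.5 CPM in siCtrl. It was not called, with a log2 fold change of -0.16 ± 0.19 within lines.

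Ddit4, an inhibitor of the growth kinase mTORC1, also fell in siSirt1 within lines. It had 43.4, 37.7, 47.2, 79.1 and 67.9 CPM in siSirt1, against 87.8, 56.2, 62, 177 and 96 CPM in siCtrl. Each siSirt1 library lay below its own control, with line 4 highest in both groups. The log2 fold change was -0.85 ± 0.14 within lines (edgeR adjusted p = 0.016) and -0.93 ± 0.34 with the group alone (adjusted p = 0.39). Without line 1 the call within lines was lost.

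Pfkfb3, whose enzyme makes the fructose 2,6-bisphosphate that activates phosphofructokinase, ran the other way in most lines. It had 24.1, 31.4, 33.7, 14.3 and 18.3 CPM in siSirt1, against 7.89, 16.7, 16.8, 15.8 and 10.9 CPM in siCtrl. It was higher in 4 of 5 lines and lower in line 4, and it was not called over all lines (log2 fold change 0.72 ± 0.24 within lines, edgeR adjusted p = 0.11). Without line 4 it was called, at 0.96 ± 0.17 with an adjusted p of 0.033. Hk2, the hexokinase that is induced by hypoxia, had 89.7, 91.5, 149, 33.1 and 65.9 CPM in siSirt1, against 35.6, 46.5, 64.2, 59 and 50.5 CPM in siCtrl. It shared the pattern of Pfkfb3, higher in 4 lines and lower in line 4, and was called without line 4 (0.88 ± 0.17, adjusted p = 0.045) but not with it (0.52 ± 0.32, adjusted p = 0.34). Without line 4 the calls were thus 2 higher (Hk2 and Pfkfb3) and 2 lower (Egln3 and Ddit4), against 1.06% of all genes higher and 2.53% lower.

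Hif1a itself, the oxygen-sensitive subunit, had 131, 119, 142, 124 and 180 CPM in siSirt1, against 100, 99.3, 115, 110 and 128 CPM in siCtrl. Its log2 fold change of 0.21 ± 0.08 within lines was not called (edgeR adjusted p = 0.15). Vegfa, the angiogenic growth factor, had 65.4 to 130 CPM in siSirt1 and 88 to 143 CPM in siCtrl, and Slc16a3 had 0.741 to 22.1 and 2.31 to 14.2 CPM. P4ha1 and P4ha2, catalytic subunits of collagen prolyl 4-hydroxylase, and Pfkfb4, a relative of Pfkfb3, were not called either, and nor was Ndrg1, a stress-responsive gene.

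**Figure D2:**
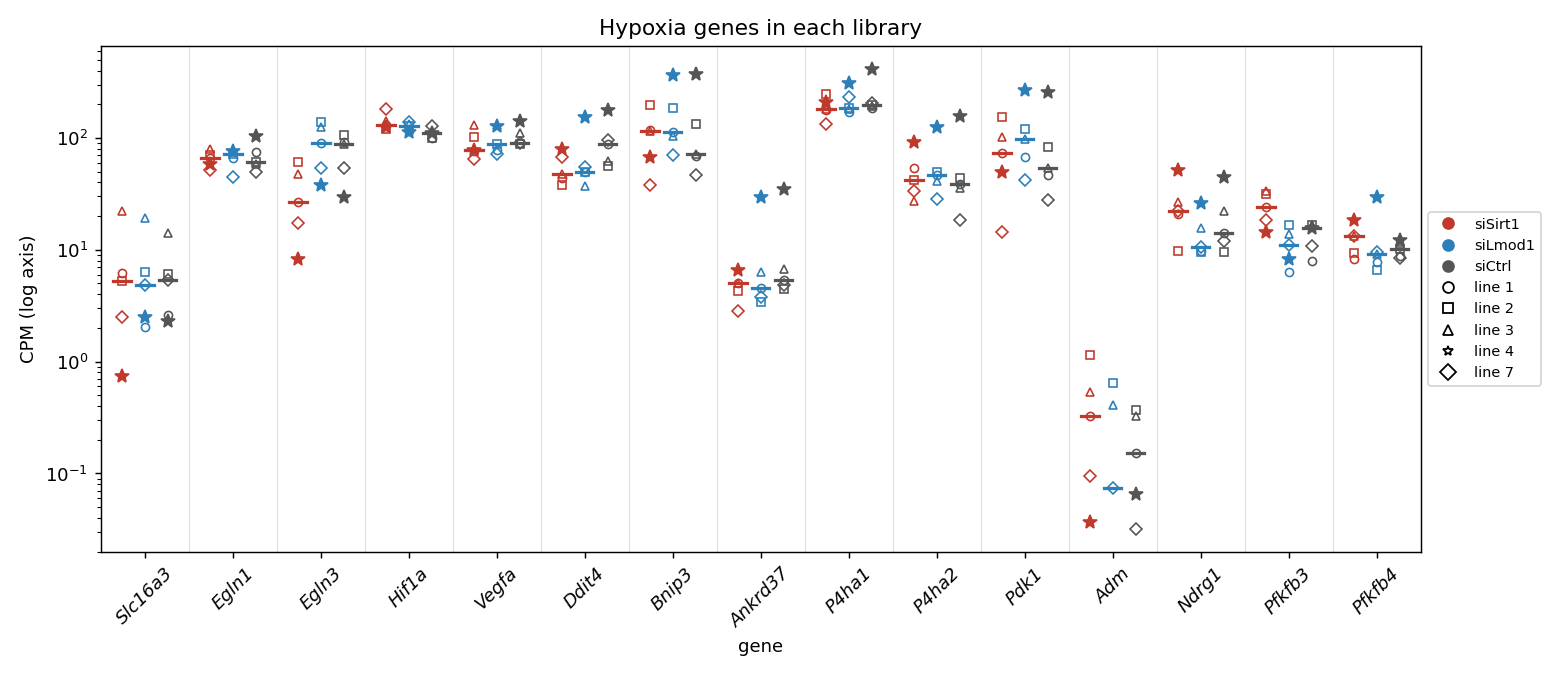
CPM (log axis) of the 15 hypoxia genes in each library; colours are groups, symbols are lines, bars are group medians, and the 2 siLmod1 libraries with no Adm count are not drawn. For Bnip3, Pdk1 and Ankrd37 the filled stars of line 4 lie above every other line in siLmod1 and siCtrl, and among or near the other lines in siSirt1; for Egln3 the siSirt1 values are the lowest of each line.

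The members were next compared between lines. On the scaled log2 CPM, line 4 was the highest of the 5 siSirt1 libraries for 3 of 18 enzymes and 5 of 15 hypoxia genes. In siLmod1 it was the highest for 11 enzymes and 10 hypoxia genes, and in siCtrl for 12 and 10. Over all 15716 genes it was the highest for 28.8% in siSirt1, 29.5% in siLmod1 and 30.8% in siCtrl. The median enzyme in line 4 stood at -0.54 against the median of the other lines in siSirt1 (log2), at 0.63 in siLmod1 and at 0.78 in siCtrl. For the hypoxia genes these values were -0.24, 0.77 and 0.89.

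Bnip3, which encodes a mitophagy receptor, was high in line 4 outside siSirt1. It had 117, 199, 115, 67.1 and 37.6 CPM in siSirt1, 112, 186, 104, 364 and 70.6 CPM in siLmod1 and 69.2, 133, 72.1, 375 and 46.5 CPM in siCtrl. Line 4 was the highest in siLmod1 and siCtrl and the second lowest in siSirt1. Pdk1, a kinase that inhibits pyruvate dehydrogenase, had 73.9, 155, 101, 49.9 and 14.3 CPM in siSirt1, 67, 119, 97.2, 271 and 42.1 CPM in siLmod1 and 46.5, 82.5, 54.3, 256 and 28.1 CPM in siCtrl. In both genes siSirt1 lay above siCtrl in lines 1, 2 and 3 and below it in lines 4 and 7. Ankrd37, an ankyrin repeat gene known as a target of the hypoxia-inducible factors, had 5.07, 4.24, 5.01, 6.63 and 2.81 CPM in siSirt1, 4.51, 3.4, 6.31, 29.6 and 3.8 CPM in siLmod1 and 5.36, 4.42, 6.76, 34.7 and 4.85 CPM in siCtrl. Its high values outside siSirt1 were those of line 4 alone. Ankrd37 overlaps Ufsp2, which held 406% of its counts, and the kit keeps no strand, so reads of the shared stretch cannot be told apart.

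The glycolytic enzymes Pgk1 and Ldha showed the same order of line 4 against the other lines. Pgk1, phosphoglycerate kinase, had 819, 1216, 851, 586 and 310 CPM in siSirt1, 709, 981, 793, 1695 and 538 CPM in siLmod1 and 626, 915, 662, 1574 and 459 CPM in siCtrl. Ldha, the main lactate dehydrogenase subunit here, had 1222, 1897, 1388, 851 and 681 CPM in siSirt1, 1359, 1775, 1227, 2641 and 1009 CPM in siLmod1 and 1300, 1808, 1150, 3020 and 1049 CPM in siCtrl. Line 4 held the highest value of both genes in siLmod1 and siCtrl and lay below lines 1, 2 and 3 in siSirt1. Pfkp, the platelet-type phosphofructokinase, was an exception. It had 23.2, 12.6, 30.9, 365 and 30.6 CPM in siSirt1, 18.5, 10.4, 26.6, 517 and 18.8 CPM in siLmod1 and 19, 9.86, 20.7, 487 and 25.7 CPM in siCtrl. Line 4 was thus far above the other lines in all groups. Pfkp overlaps Pitrm1, which held 86.2% of its counts.

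Within line 4, siSirt1 lay below siCtrl for 18 of 18 enzymes and 13 of 15 hypoxia genes, and by more than 1 on the log2 scale for 10 and 9 of them. The median difference was -1.05 for enzymes and -1.07 for hypoxia genes, and 9.26% of all genes lay that far below. In line 7 the difference was below 0 for 16 enzymes and 9 hypoxia genes, with medians of -0.75 and -0.49. In lines 1, 2 and 3 the enzyme medians were -0.26, 0.02 and 0.08 and the hypoxia medians 0.29, 0.12 and 0.25. These are differences of 1 library against 1, with no test, and in line 4 Sirt1 kept more of its control level than in the other lines. The 12 genes of differentiating muscle had medians of -0.64, -0.24, -0.03, -1.08 and -1.04 in lines 1, 2, 3, 4 and 7. Like the enzymes and hypoxia genes they were lowest in lines 4 and 7, while the hypoxia medians of lines 1, 2 and 3 were above 0. The part of these muscle genes in the result was not tested. Fibroblast markers, mostly Col3a1, summed to 429, 108, 396, 703 and 791 CPM in siSirt1, against 305, 119, 449, 432 and 503 CPM in siCtrl. They were higher in lines 1, 4 and 7 and lower in lines 2 and 3, and their part was not tested either. In siLmod1 minus siCtrl the enzyme medians were -0.11 to 0.12 over the 5 lines and the hypoxia medians -0.28 to 0.19.

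**Figure D3:**
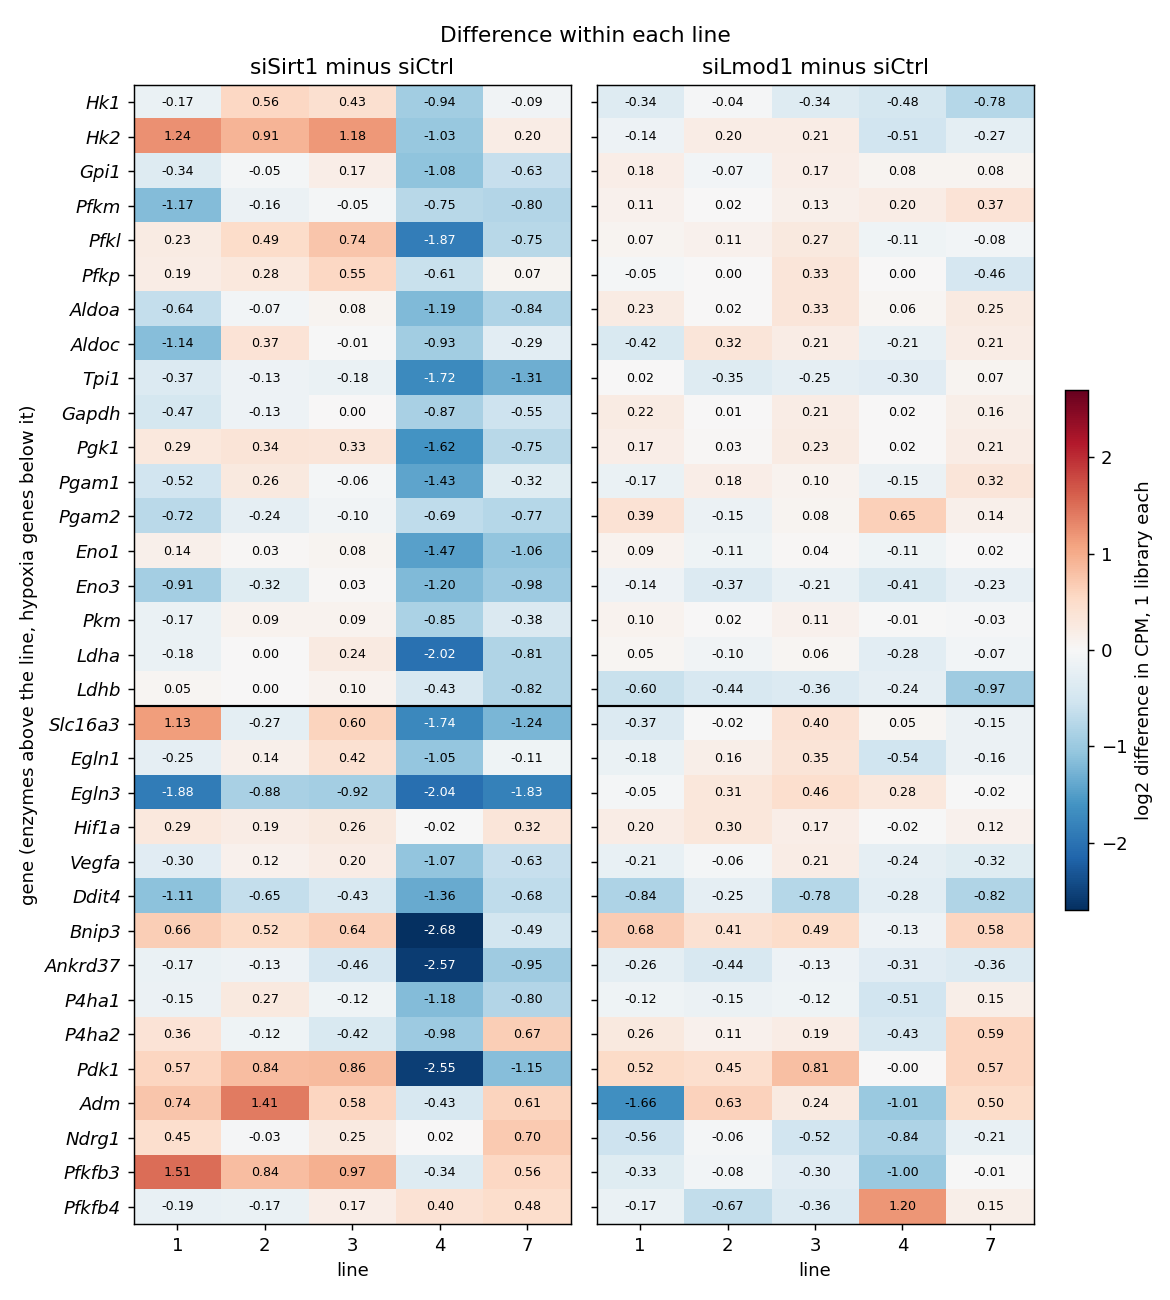
Log2 difference in scaled CPM within each line, siSirt1 minus siCtrl on the left and siLmod1 minus siCtrl on the right, for all 33 members (enzymes above the horizontal line). Each cell is 1 library against 1; line 4 in siSirt1 is below 0 for all 18 enzymes and reaches -2.68 for Bnip3, while Egln3 and Ddit4 are below 0 in all 5 lines.

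The knockdowns were then compared with each other, which leaves the control libraries out. With the group alone 0 members were called by edgeR, against 0.68% of 14998 genes higher and 0.853% lower. An unadjusted p under 0.05 was found for 4 of the 32 members tested and for 2461 of the 14998 genes. DESeq2 with the group alone called 2, Pfkfb3 higher and Gapdh lower in siSirt1 (adjusted p of 0.047 and 0.02). Within lines 2 hypoxia genes were higher in siSirt1, against 7.43% of all genes, and 4 enzymes and 1 hypoxia gene were lower, against 8.38%. The median log2 fold change within lines was -0.43 for the enzymes and -0.24 for the hypoxia genes, beside 0.01 over all genes. Without line 4 these medians were -0.23 and -0.04. The summed fibroblast markers (mostly Col3a1) and the summed smooth muscle and pericyte markers (Notch3 the largest part) were higher in siSirt1 than in siLmod1 in every line. Their part in these values was not tested.

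Egln3 led the hypoxia genes again, with 89.8, 138, 124, 38.1 and 54.1 CPM in siLmod1 beside the siSirt1 values given above. Its log2 fold change was -1.70 ± 0.16 within lines (edgeR adjusted p = 0.0015), and the call held whichever line was left out. Pfkfb3 was higher in siSirt1 in 5 of 5 lines, with 6.3, 16.5, 13.9, 8.33 and 11 CPM in siLmod1. Its log2 fold change was 1.05 ± 0.19 (adjusted p = 0.012), and this call also held without any 1 line. Ndrg1 had 20.7, 9.78, 26.8, 51.8 and 22.4 CPM in siSirt1, 9.7, 9.56, 15.7, 26.4 and 10.6 CPM in siLmod1 and 14.2, 9.52, 22, 44.5 and 12.1 CPM in siCtrl. It was higher in siSirt1 than in siLmod1 in all lines, by 0.72 ± 0.15 (adjusted p = 0.019), with almost no difference in line 2. The call was lost without line 1, 3, 4 or 7, and without line 4 its adjusted p was 0.064.

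The 4 enzymes that were lower in siSirt1 than in siLmod1 were Pfkm, Aldoa, Gapdh and Pgam2. Gapdh had 3331, 4145, 3959, 3016 and 3509 CPM in siSirt1, 5054, 4567, 4565, 5165 and 5102 CPM in siLmod1 and 4321, 4331, 3860, 4797 and 4523 CPM in siCtrl. All siSirt1 values lay below all siLmod1 values, and the log2 fold change was -0.53 ± 0.15 within lines (edgeR adjusted p = 0.044). Gapdh overlaps Iffo1, which held 15.2% of its counts. Aldoa had 2393, 3499, 2958, 2173 and 1656 CPM in siSirt1, 4127, 3723, 3515, 4763 and 3154 CPM in siLmod1 and 3496, 3500, 2727, 4316 and 2616 CPM in siCtrl. It was lower in siSirt1 than in siLmod1 in 5 of 5 lines, by 0.09 to 1.24 on the log2 scale, with a fold change of -0.71 ± 0.19 (adjusted p = 0.041). The Pfkm call was lost without line 1, 4 or 7, and those of Aldoa, Gapdh and Pgam2 without line 1, 3, 4 or 7. With the line as a block, no filter ended the calls of Pfkm and Pgam2 (adjusted p of 0.051 and 0.11), and limma on TPM those of Aldoa, Gapdh and Pgam2 (0.051, 0.056 and 0.054). Without line 4 the adjusted p ran from 0.084 for Pfkm to 0.12 for Gapdh. In that fit the enzymes Hk1, Hk2 and Ldhb were higher in siSirt1 instead, at 0.56 ± 0.11, 0.89 ± 0.15 and 0.43 ± 0.10. Pfkfb3 was still higher there, at 1.16 ± 0.21, against 4.17% of all genes higher. Egln3 was the single member lower, against 4.98%.

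**Figure D4:**
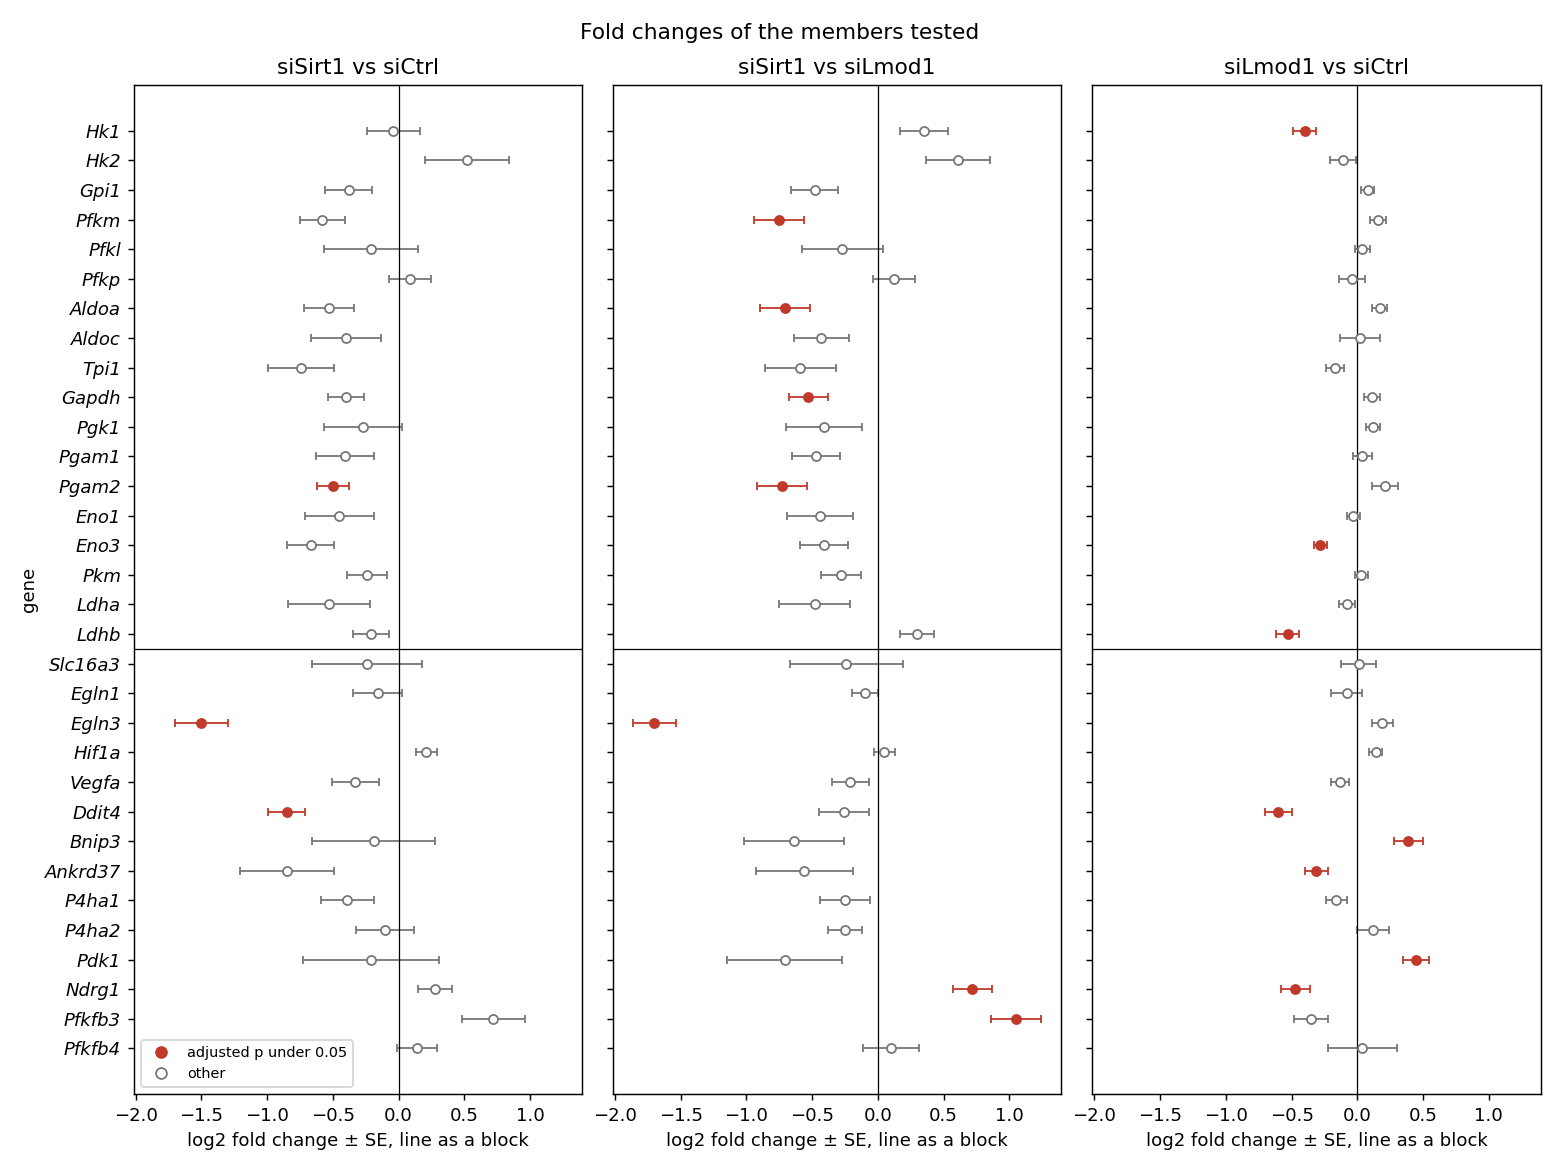
Log2 fold change with its SE (edgeR, line as a block, n = 5 lines) of the 32 members tested, in siSirt1 against siCtrl, siSirt1 against siLmod1 and siLmod1 against siCtrl; filled points had an adjusted p under 0.05. The 2 panels with siSirt1 show Egln3 farthest to the left (-1.50 and -1.70) and wider errors than the panel of siLmod1 against siCtrl.

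Lmod1 knockdown was set against the control last. With the group alone no member was called and none had an unadjusted p under 0.05 in edgeR. Of 15022 genes 0 were called higher and 15, or 0.0999%, lower, and 1346 had an unadjusted p under 0.05. DESeq2 with the group alone called no member. Within lines 2 of the 32 members tested were higher, against 13% of all genes, and 6 were lower, against 16.6%. The lower calls were thus near the share over all genes, and the higher calls below it. The median log2 fold change within lines was 0.02 for enzymes and -0.04 for hypoxia genes, beside -0.01 over all genes. All members called moved in the same direction in at least 4 of 5 lines. When all 15 libraries shared 1 blocked fit, Ldhb and Ddit4 were still called (adjusted p of 0.029 and 0.045), while Hk1 (0.18), Eno3 (0.34), Ndrg1 (0.065), Ankrd37 (0.6), Pdk1 (0.58) and Bnip3 (0.61) were not. Fibroblast markers, mostly Col3a1, summed to 167, 88.2, 181, 206 and 299 CPM in siLmod1, against 305, 119, 449, 432 and 503 CPM in siCtrl. Smooth muscle and pericyte markers, with Notch3 the largest part, summed to 68.9, 50.1, 76.5, 46.7 and 106 CPM in siLmod1, against 145, 101, 211, 53.1 and 196 CPM in siCtrl. Both sums were lower in siLmod1 in 5 of 5 lines, and their part in the members' values was not tested.

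Ddit4 was lower in siLmod1 as well, with 49.5, 49.5, 36.9, 155 and 55 CPM. Its log2 fold change was -0.60 ± 0.10 within lines (edgeR adjusted p = 0.0024). Since both comparisons use the same control libraries, these are not independent of the siSirt1 values. Between the knockdowns Ddit4 was not called, at -0.26 ± 0.19. Ndrg1 was lower in siLmod1 by -0.47 ± 0.11 (adjusted p = 0.0077) and Ankrd37 by -0.31 ± 0.09 (adjusted p = 0.028), though the Ankrd37 call was lost without line 1, 2, 4 or 7 and in DESeq2 with the block (adjusted p = 0.057). The genes called higher were Pdk1, at 0.45 ± 0.10 (adjusted p = 0.01), and Bnip3, at 0.39 ± 0.11 (adjusted p = 0.024). Both were higher in lines 1, 2, 3 and 7 by 0.41 to 0.81 on the log2 scale, and line 4 showed differences of -0.00 for Pdk1 and -0.13 for Bnip3. Without line 4 Pdk1 was at 0.59 ± 0.07 and Bnip3 at 0.54 ± 0.06, while the Bnip3 call was lost without any 1 of the other lines. Hif1a (0.19 ± 0.05) and P4ha2 (0.28 ± 0.08) were also called higher when line 4 was left out, as were Aldoa (0.21 ± 0.06) and Pgk1 (0.16 ± 0.05), against 12.9% of all genes higher and 15.5% lower in that fit.

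The enzymes called lower in siLmod1 were Ldhb, Hk1 and Eno3. Ldhb, the lactate dehydrogenase subunit typical of oxidative tissue, had 85.3, 76.7, 92.8, 33.9 and 35.5 CPM in siSirt1, 51.5, 56.6, 67.2, 35.9 and 28.4 CPM in siLmod1 and 77.4, 73.1, 84.5, 39.8 and 55.2 CPM in siCtrl. It was below its control in 5 of 5 siLmod1 libraries, at -0.53 ± 0.09 (edgeR adjusted p = 0.0027). Hk1, the hexokinase found in most tissues, had 187, 165, 221, 264 and 148 CPM in siSirt1, 156, 110, 129, 337 and 81.3 CPM in siLmod1 and 197, 107, 160, 443 and 138 CPM in siCtrl. Its log2 fold change in siLmod1 was -0.40 ± 0.09 (adjusted p = 0.0089), with a difference of only -0.04 in line 2. All 3 enzymes kept their call whichever line was left out, while the blocked fit of all 15 libraries kept that of Ldhb alone.

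Isoform shares were taken within each enzyme family on the TPM scale. How much of their spread lay between lines and how much between groups was not computed. Of the phosphofructokinases, Pfkm took 67.4%, 72.5%, 76.1%, 40% and 78.5% in siSirt1, 84.9%, 79.5%, 83.1%, 34.5% and 85.3% in siLmod1 and 84.5%, 80.4%, 84.5%, 30.4% and 80.6% in siCtrl. In line 4 the muscle isoform thus held less than Pfkl and Pfkp combined in every group. Pfkm had 240, 429, 463, 148 and 168 CPM in siSirt1, 549, 484, 524, 264 and 336 CPM in siLmod1 and 505, 456, 467, 217 and 257 CPM in siCtrl. It was lower in siSirt1 than in siLmod1 in all lines, by -0.75 ± 0.19 within lines (edgeR adjusted p = 0.032). The liver-type isoform Pfkl had 162, 236, 201, 160 and 53.9 CPM in siSirt1, 137, 181, 146, 503 and 76.8 CPM in siLmod1 and 129, 160, 118, 510 and 80.1 CPM in siCtrl. Pfkl lay above siCtrl in lines 1, 2 and 3 and below it in lines 4 and 7.

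Among the mutases, the muscle isoform Pgam2 took 76.2 ± 9.13% in siSirt1, 79.2 ± 9.09% in siLmod1 and 76.2 ± 15.6% in siCtrl (SD, n = 5 lines). Pgam2 had 186, 380, 360, 133 and 207 CPM in siSirt1, 380, 406, 408, 312 and 346 CPM in siLmod1 and 287, 429, 378, 187 and 311 CPM in siCtrl. It was below its control in all siSirt1 lines, by -0.50 ± 0.12 (edgeR adjusted p = 0.047), a call that was lost when any 1 line was left out, with all 15 libraries in 1 blocked fit (adjusted p = 0.056) and in limma on TPM (adjusted p = 0.07), and below siLmod1 by -0.73 ± 0.19 (adjusted p = 0.04). The general isoform Pgam1 had 154, 182, 143, 177 and 112 CPM in siSirt1, 185, 173, 160, 398 and 155 CPM in siLmod1 and 207, 145, 146, 416 and 123 CPM in siCtrl. Line 4 was again the high one outside siSirt1.

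Among the enolases, the muscle isoform Eno3 took 51.1 ± 10.8% in siSirt1, 50.7 ± 11% in siLmod1 and 54.9 ± 10.7% in siCtrl. Eno3 had 374, 811, 752, 267 and 475 CPM in siSirt1, 601, 786, 635, 427 and 712 CPM in siLmod1 and 657, 963, 717, 537 and 825 CPM in siCtrl. In siLmod1 it was below its control in all lines, by -0.28 ± 0.05 (edgeR adjusted p = 0.0028), and its share was lower in 5 of 5. In siSirt1 its log2 fold change of -0.67 ± 0.18 was not called (adjusted p = 0.065). Eno1, the general isoform, had 1800, 2006, 1773, 1213 and 841 CPM in siSirt1, 1642, 1821, 1719, 2877 and 1578 CPM in siLmod1 and 1535, 1869, 1640, 2930 and 1541 CPM in siCtrl.

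Of the hexokinases, Hk2 took 40.6%, 44.2%, 49%, 15.2% and 38.9% in siSirt1, 22.9%, 42.3%, 45.5%, 15.7% and 42.6% in siLmod1 and 20.6%, 38.3%, 36.5%, 16% and 34.3% in siCtrl. The Hk2 counts in siLmod1 were 32.6, 56.2, 75.7, 44 and 42.3 CPM. The Hk2 share was above that of siCtrl in 4 of 5 siSirt1 and 4 of 5 siLmod1 libraries, line 4 being the exception in both. Ldhb took 10.1 ± 2.41%, 6.49 ± 2.75% and 9.02 ± 4.06% of the lactate dehydrogenases in siSirt1, siLmod1 and siCtrl, and its siSirt1 share was the larger in 5 of 5 lines against siLmod1. Aldoa took 99.8% to 99.9% of the aldolases in all libraries.

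Genes of differentiating muscle are given beside the muscle isoforms. Ckm, the muscle creatine kinase, had 165, 252, 353, 34.5 and 38.7 CPM in siSirt1, 344, 328, 339, 156 and 302 CPM in siLmod1 and 330, 424, 337, 113 and 191 CPM in siCtrl. The 12 markers of differentiating muscle summed to 6640 to 37113 CPM in siSirt1, 11896 to 44610 in siLmod1 and 12210 to 45506 in siCtrl. Their median log2 fold change within lines was -0.60 in siSirt1 against siCtrl (4 of 12 called lower), -0.64 against siLmod1 (2 lower) and -0.13 in siLmod1 against siCtrl (3 lower and 1 higher). Over all genes 4.35% were lower in the first comparison, 8.38% in the second, and 16.6% lower and 13% higher in the third. The part of these markers in the isoform values was not tested. Mitochondrially encoded genes took 2.46 ± 0.4% of counts in siSirt1, 2.82 ± 0.428% in siLmod1 and 2.34 ± 0.299% in siCtrl.

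**Figure D5:**
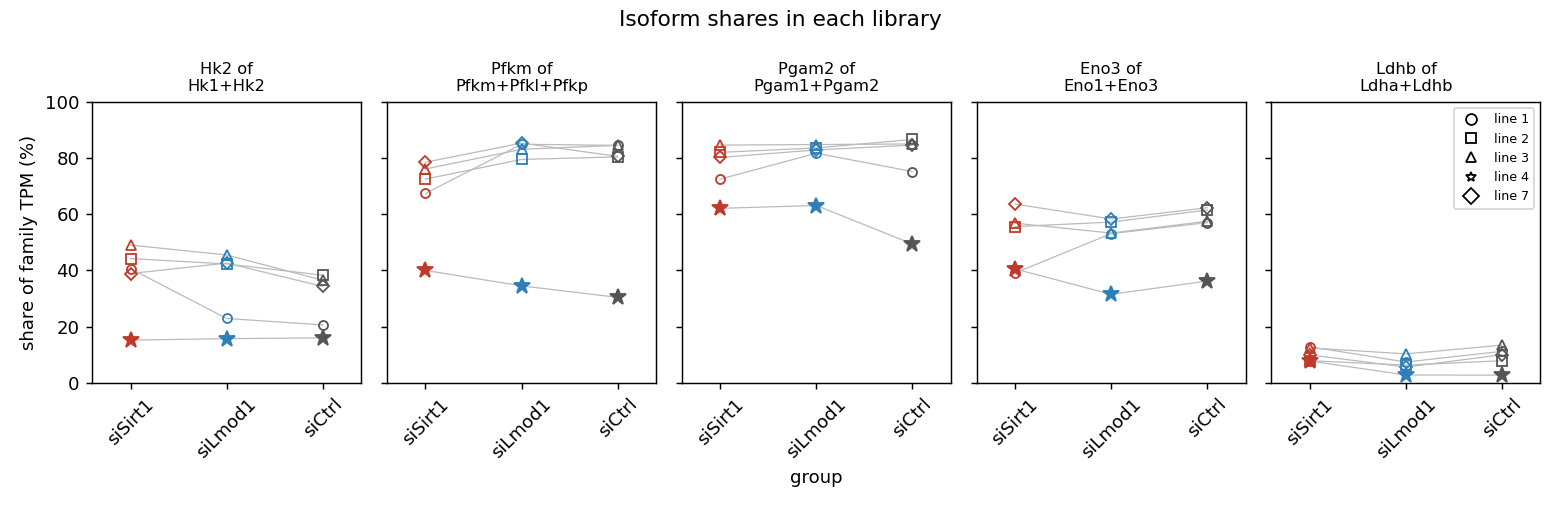
Share of 1 isoform in the summed TPM of its family, in percent, in siSirt1, siLmod1 and siCtrl; symbols are lines and grey lines join the libraries of a line. Line 4 (filled stars) has the lowest Pfkm share in every group (40%, 34.5% and 30.4%), and the Ldhb share stays between 2.71% and 13.4%.

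Genes around the same pathways were counted by list. With the group alone edgeR called no gene of these lists in any comparison. Over all genes it called at most 0.853% in either direction. The counts given here are those within lines. Beside these counts stand the shares of all genes called, which were 13% higher and 16.6% lower in siLmod1 against siCtrl, 2.71% higher and 4.35% lower in siSirt1 against siCtrl, and 7.43% higher and 8.38% lower in siSirt1 against siLmod1. Of 33 other glycolysis and pyruvate genes tested, 14 were higher and 8 lower in siLmod1 against siCtrl, with a median log2 fold change of 0.20. The smallest p-values there were those of Taldo1, a transaldolase of the pentose phosphate path (-1.16 ± 0.07), Slc16a1, a lactate and pyruvate transporter (0.41 ± 0.05), and Dlat, a subunit of pyruvate dehydrogenase (0.29 ± 0.04). In siSirt1 against siCtrl 0 of 33 were called by edgeR, with 8 at an unadjusted p under 0.05, against 3743 of all 14912 genes. Against siLmod1, 6 were higher and 4 lower in siSirt1, led by Taldo1 (0.93 ± 0.09), the kinase gene Pdk2 (-0.74 ± 0.10) and its relative Pdk3 (0.84 ± 0.13). Taldo1 had 109, 121, 131, 204 and 120 CPM in siSirt1, 55.5, 71.3, 64.3, 108 and 46.7 CPM in siLmod1 and 125, 135, 125, 221 and 127 CPM in siCtrl, so siLmod1 was the lowest in every line.

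Of 22 glycogen genes tested, 5 were higher in siLmod1 against siCtrl, led by Gbe1, the branching enzyme, at 0.63 ± 0.05. In siSirt1, 2 were lower than in siCtrl, Phka1, a phosphorylase kinase subunit (-0.55 ± 0.08), and Pgm2 (-0.48 ± 0.11). Against siLmod1, 5 were lower, with Gbe1 at -0.80 ± 0.11, Phka1 at -0.64 ± 0.11 and the glycogen synthase gene Gys1 at -0.73 ± 0.17. Of 20 other components of the hypoxia-inducible factor pathway, 3 were higher and 4 lower in siLmod1, near the shares over all genes, with Vhl, which recognises the hydroxylated factor, at 0.22 ± 0.05. In siSirt1 the single call against siCtrl was Arnt2, a relative of the Arnt partner subunit, which fell by 0.90 on the log2 scale (SE 0.10, adjusted p = 0.0054) and had 25.6, 11.9, 9.6, 37.5 and 17.5 CPM, against 45.4, 18.9, 18.5, 53.9 and 34.3 CPM in siCtrl. Against siLmod1, 3 were lower in siSirt1, among them Arnt2 again at -0.73 ± 0.10.

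Of the other hypoxia-induced genes, 14 of 40 were higher and 4 lower in siLmod1 against siCtrl. Ero1l, an oxidase of the endoplasmic reticulum, was at 0.77 ± 0.06 and Rora, a nuclear receptor, at 0.63 ± 0.06. In siSirt1 against siCtrl 3 of 41 were higher and 2 lower. Angptl4, an inhibitor of lipoprotein lipase, had 6.18, 0.832, 1.97, 4.45 and 4.19 CPM in siSirt1, against 0.92, 0, 0.387, 0.461 and 0.707 CPM in siCtrl, and its log2 fold change was 2.80 ± 0.39 (adjusted p = 0.0088) from these low counts. Plod2, a collagen lysyl hydroxylase, had 146, 130, 108, 226 and 154 CPM in siSirt1, against 267, 203, 169, 497 and 198 CPM in siCtrl, a log2 fold change of -0.85 ± 0.12. Against siLmod1, 2 of 41 were higher and 10 lower in siSirt1, led by Plod2 (-0.72 ± 0.09), Gbe1 and Nrn1 (-1.45 ± 0.23). The hypoxia and glycogen lists share Gys1, Gbe1 and Ppp1r3c, so the counts are not separate. In siSirt1 against siCtrl the medians of these 4 lists within lines were -0.08 to 0.02, beside -0.40 for the 18 enzymes.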

How the data were processed

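Libraries were made from polyadenylated RNA with the TruSeq v2 kit, which keeps no strand, per the labels' protocols. Raw counts for each Ensembl gene and TPM values, both made by the authors, were deposited. DESeq2 and the build mm10 are named in the submitters' processing notes, with no version; for the aligner, counter and annotation no name was given in the sources used here. All 30 columns repeated between tables were identical. Of 49315 identifiers, 48970 had a symbol. Identifiers, overlapping genes and named pseudogenes were read from GENCODE M21.

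For each pair of groups, counts were filtered with filterByExpr, scaled by TMM and tested with edgeR 4.0.16 in R 4.3.3 (quasi-likelihood, robust), with Benjamini-Hochberg adjustment over all genes and a threshold of 0.05. The SE of an edgeR log2 fold change was derived from the test, as its absolute value over the square root of the F statistic. The design names 5 lines and the groups share 5 numbers, so numbers pair the libraries: after removing group means, libraries of 1 number correlated at 0.278 to 0.889 (15 pairs) and others at -0.517 to 0.269 (60 pairs), over 15716 genes. The siSirt1 library of line 1 matched its own number at 0.278 and 0.304 and line 3 at 0.269 and 0.205. The line was therefore also fitted as a block, which changed calls and is printed beside the fit of the group alone. Each line has 1 library per group, so p-values speak for the spread between these 5 lines. Differences within a line used log2 CPM with a prior count of 2; CPM in the text is the count over the library total. Alternatives were DESeq2 1.42.0, limma 3.58.1 on log2(TPM + 1), other scaling, no filter, all 15 libraries together and leaving out each library or line. The fitting code was tested on simulated data. Figures were drawn with matplotlib 3.10.9. The floor of 3 counts covers counting error only. Named pseudogenes held at most 0.584% of any member's counts.

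The members, gene lists and tests were chosen with earlier results of these data known. Values in every library are given for members called in any comparison and for isoform families. From each further list at most 3 called genes per comparison with the smallest p were named, with Lmod1, Sirt1, Myog and Ckm. Other members and marker genes named with values (Pgk1, Egln1, Hif1a, Myod1, Myf5, Pax7, Tek, Pecam1, Kdr, Emcn, Cdh5, Lum, Tcf21, Col3a1 and Notch3) were chosen after their values were seen.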

Additional observations from a re-analysis of the deposited data

Results flagged for a closer look

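In each group of 5 libraries, a member was marked where its highest or lowest library lay far from the nearest other on the log2 scale, relative to the whole range (Dixon's test). Of 96 groups tested, 12 were marked, 10 of them in line 4 and 10 for a high value. Chance marks about 1 in 20 independent groups, but these groups share the same 5 lines and are not independent. No share of marks over all genes was taken, so the count does not set the members against other genes. Pfkp was marked in every group, at 365 CPM in the siSirt1, 517 in the siLmod1 and 487 in the siCtrl library of line 4, with all other lines at 30.9 CPM or less. In siLmod1, line 4 was also marked for Pgam1 (398 CPM, others 155 to 185), Eno1 (2877 CPM, others 1578 to 1821), Ddit4 (155 CPM, others 36.9 to 55), Ankrd37 (29.6 CPM, others 3.4 to 6.31) and Pfkfb4 (29.7 CPM, others 6.6 to 9.47). In siCtrl, line 4 was marked for Ankrd37 (34.7 CPM, others 4.42 to 6.76) and P4ha1 (414 CPM, others 185 to 205). Line 7 was marked as low for Pfkl in siSirt1 (53.9 CPM, others 160 to 236) and for Egln1 in siLmod1 (44.9 CPM, others 65.9 to 76.9).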

How the results depend on the processing

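All counts of calls below are members with an adjusted p under 0.05, and every such count was 0 in the edgeR fit of the group alone. Many of them moved once the replicate number (the line) was fitted as a block. DESeq2 with the group alone also made calls in siSirt1 against siLmod1, so pairing the libraries was not the only setting that moved them. Shares of all genes called were taken for the edgeR fits of the group alone, with the block, and with the block without line 4. They were not taken for the other settings, so the counts there do not set the members against other genes. In siLmod1 against siCtrl the replicate block gave 0 enzymes higher, 3 enzymes lower, 2 hypoxia genes higher and 3 lower. The same counts were 0, 3, 2 and 3 with RLE size factors and the block, 3, 4, 3 and 5 with no filter and the block, 2, 3, 2 and 3 in DESeq2 with the block, 0, 1, 0 and 1 with all 15 libraries and the block, and 4, 3, 3 and 3 in limma on TPM with the block. Leaving out each line in the blocked fit gave 0 to 3, 3 to 4, 1 to 4 and 2 to 4.

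In siSirt1 against siCtrl the same counts were 0, 1, 0 and 2 with the replicate block, 0, 1, 0 and 2 with RLE, 0, 3, 0 and 2 with no filter, 0, 6, 1 and 2 in DESeq2, 0, 3, 1 and 2 with all 15 libraries and 0, 0, 1 and 2 in limma on TPM, all with the block. Leaving out each line gave 0 to 1, 0 to 2, 0 to 1 and 1 to 2. In siSirt1 against siLmod1 they were 0, 4, 2 and 1 with the block, 0, 4, 2 and 1 with RLE, 0, 2, 2 and 1 with no filter, 1, 5, 2 and 1 in DESeq2, 0, 4, 2 and 1 with all 15 libraries and 0, 1, 2 and 1 in limma on TPM. Leaving out each line gave 0 to 3, 0 to 4, 1 to 2 and 1 in every case. DESeq2 with the group alone called 1 enzyme lower and 1 hypoxia gene higher there. Leaving out single libraries without the block gave 0 calls in every comparison.

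Median log2 fold changes of siLmod1 against siCtrl ran from -0.24 to 0.17 for enzymes and from -0.31 to 0.11 for hypoxia genes when a library was left out with the group alone, and from -0.03 to 0.07 and -0.15 to 0.02 when a line was left out with the block. Those of siSirt1 against siCtrl ran from -0.57 to -0.22 and from -0.46 to 0.12 with the group alone, and from -0.52 to -0.20 and -0.44 to 0.07 with the block. Between siSirt1 and siLmod1 they ran from -0.62 to -0.21 and from -0.3 to 0.01, and with the block from -0.59 to -0.23 and -0.29 to -0.04. In limma on TPM the median of all genes in siSirt1 against siCtrl was 0.12, and the medians were -0.25 for enzymes and -0.08 for hypoxia genes. Directions that turned with the group alone, all in siLmod1 against siCtrl, were Hk1 (0.08) and Ankrd37 (0.80) without the siCtrl library of line 4, Bnip3 without the siCtrl library of line 7 (-0.03) or the siLmod1 library of line 4 (-0.32), and Pdk1 (-0.29) and Cited2 (-0.40) without that siLmod1 library. Over the libraries left out, the values ran from -0.89 to 0.08 for Hk1, from -0.32 to 1.01 for Bnip3, from -1.41 to 0.80 for Ankrd37, from -0.29 to 1.13 for Pdk1 and from -0.40 to 1.21 for Cited2. The cause was not tested. The Eno3 share in siLmod1 minus siCtrl was -4.22 percentage points by TPM and -3.37 by counts. Leaving out each line for the shares was chosen after seeing the data. Adm, at or near the floor of 3 counts, failed the filter on low counts in the 3 comparisons of all lines. It passed without line 4 in siSirt1 against siLmod1, where it was not called (1.05, adjusted p = 0.34).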
